A study of Mus musculus with 24 samples.

Results

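The nuclear-encoded subunits of the oxidative phosphorylation machinery were examined in microglia, the resident macrophages of the brain. Members were all protein-coding mouse genes whose symbol follows the naming of a subunit of complexes I to V (Ndufa, Ndufb, Ndufc, Ndufs or Ndufv with a number, Sdha to Sdhd, Uqcr, Cox4 to Cox8 with a letter, and Atp5). This gave 82 of the 35518 genes in the deposited files: 35 of complex I, 4 of complex II, 8 of complex III, 18 of complex IV and 17 of complex V. Of the 82, 74 passed the filter on low counts and were tested. The 8 that did not were Cox6a2 (146 reads over the 24 libraries), Atp5s (71), Cox8b (19), Cox7a1 (15), Cox6b2 (14), Ndufa4l2 (1), and Cox7b2 and Cox8c, which are listed at 0.

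The study measured RNA in 24 libraries of 1000 sorted microglia (Ly6C-CD11b+Fcrls+) each, from C57BL/6 mice. Animals were NL4-/-, a knock-out of the synaptic adhesion protein neuroligin-4, or WT, and of either sex. Libraries carried the label phagocytosis (16: 4 female NL4-/-, 4 female WT, 4 male NL4-/- and 4 male WT) or control (8: 2 of each sex and genotype). What the cells engulfed, where, and the age of the mice are not given in the labels. The series calls its samples biological replicates and names 5 for a phagocytosis group, whereas 4 libraries of each are at hand and analysed here.

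Oxidative phosphorylation passes electrons from NADH, through complex I, and from succinate, through complex II, to complex III and then to complex IV, which hands them to oxygen. Complexes I, III and IV pump protons across the inner mitochondrial membrane, and complex V, the ATP synthase, uses the return flow to make ATP. Mitochondrial DNA encodes core subunits of complexes I, III, IV and V, whereas all of complex II and the remaining subunits are encoded in the nucleus, and macrophages shift between respiration and glycolysis as their state changes.

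Libraries held 421107 to 1013797 expected reads, and the 82 genes took 3031 to 8686 of them. The transcript set held 0 transcripts of the deleted gene, so the genotype could not be checked here. The 10 microglial markers, among them P2ry12 and Tmem119, had reads in most libraries and summed to 20823 to 46454 counts per 1000000 reads (CPM) in phagocytosis libraries and 33191 to 47408 CPM in control libraries, and 5 of the 10 fell and 0 rose. Those of border-associated macrophages summed to 186 to 578 CPM in phagocytosis libraries and 57.2 to 140 CPM in control libraries, and 6 of 7 tested of 11 rose. Of the 10 monocyte markers, 5 were tested and 1 rose, and their sum was 30.6 to 247 CPM in phagocytosis libraries and 18.9 to 98.1 CPM in control libraries. Neuron markers summed to a median of 63.2 CPM in phagocytosis libraries and 29.9 CPM in control libraries (11 of 12 means higher, 1 of 2 tested rose), and oligodendrocyte markers to 207 CPM in phagocytosis libraries and 147 CPM in control libraries (1 of 4 tested rose). Astrocyte markers had a median sum of 103 CPM in both states, and of 3 tested 2 rose and 1 fell. Neutrophil markers summed to a median of 423 CPM in phagocytosis libraries and 539 CPM in control libraries, and lymphocyte markers to 242 CPM in phagocytosis libraries and 397 CPM in control libraries, and in each list 0 of 3 tested rose and 1 fell. Of the 9 neutrophil markers 8, all but Csf3r, had reads in fewer than 12 libraries, as had 5 of the 8 lymphocyte markers. S100a8, Ly6g, Cd3e and Cdh5 were among the genes with reads in fewer than 12 libraries, and Cldn5 was at 0 in all. Endothelial markers summed to a median of 37.7 CPM in phagocytosis libraries and 22.0 CPM in control libraries (1 tested, not called). Erythroid markers summed to 1.3 to 931 CPM (median 9.85) in phagocytosis libraries and 1.13 to 89.7 CPM (median 3.08) in control libraries (2 tested, not called). In 3 control libraries (female NL4-/- control 1, male NL4-/- control 1 and male WT control 2) a set of 26 satellite-like transcripts (over 30% of their 10-base words lie in transcripts of Gm10800) took 21.4% to 23.2% of the reads, against 1.52% to 16.3% in the phagocytosis libraries and 4.05% to 12.6% in the other 5 controls. In 5 phagocytosis libraries the mean fragment length, worked back from the deposited effective lengths, was 116 to 179 bases, against 189 to 213 bases in the other 11 and 187 to 207 bases in the controls.

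Windows upstream of called genes are shown first, because nuclear-encoded subunits are known to share promoter motifs. They are those with the smallest p among called genes with a window at hand, 3 of complex IV and 1 each of complexes V, II and I. Each runs from 250 bases before to 50 bases after the annotated start, 5′ to 3′ on the gene's strand, from RefSeq (GRCm38.p6). Capitals mark letters of the motifs searched on both strands: CGCATGCG (nuclear respiratory factor NRF1), CCGGAAG (ETS factors such as GABPA), AAGATGGCG (YY1) and GGGCGG (SP1), none of which contains another. The windows lie at chr19:7217567-7217866 (Cox8a, minus strand), chr7:30626065-30626364 (Cox6b1, minus), chr9:57520982-57521281 (Cox5a, plus), chr11:96075582-96075881 (Atp5g1, minus), chr4:140961021-140961320 (Sdhb, plus) and chr4:40279372-40279671 (Ndufb6, minus).
Cox8a: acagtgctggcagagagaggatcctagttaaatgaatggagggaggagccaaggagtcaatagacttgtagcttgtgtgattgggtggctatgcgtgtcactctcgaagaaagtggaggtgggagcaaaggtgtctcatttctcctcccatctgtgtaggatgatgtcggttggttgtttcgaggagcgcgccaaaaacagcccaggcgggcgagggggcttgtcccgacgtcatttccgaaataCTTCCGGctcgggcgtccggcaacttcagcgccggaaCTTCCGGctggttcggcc
Cox6b1: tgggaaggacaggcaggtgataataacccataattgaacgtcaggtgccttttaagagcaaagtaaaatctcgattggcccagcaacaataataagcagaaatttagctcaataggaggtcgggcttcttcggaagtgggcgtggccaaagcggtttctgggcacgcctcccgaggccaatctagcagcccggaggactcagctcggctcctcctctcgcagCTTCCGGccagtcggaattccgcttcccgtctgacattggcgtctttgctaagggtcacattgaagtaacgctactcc
Cox5a: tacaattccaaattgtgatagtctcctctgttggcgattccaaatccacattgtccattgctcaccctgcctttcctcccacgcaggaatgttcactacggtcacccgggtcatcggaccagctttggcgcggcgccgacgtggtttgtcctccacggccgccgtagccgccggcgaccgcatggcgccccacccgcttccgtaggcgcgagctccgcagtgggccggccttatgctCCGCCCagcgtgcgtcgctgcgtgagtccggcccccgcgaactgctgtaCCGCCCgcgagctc
Atp5g1: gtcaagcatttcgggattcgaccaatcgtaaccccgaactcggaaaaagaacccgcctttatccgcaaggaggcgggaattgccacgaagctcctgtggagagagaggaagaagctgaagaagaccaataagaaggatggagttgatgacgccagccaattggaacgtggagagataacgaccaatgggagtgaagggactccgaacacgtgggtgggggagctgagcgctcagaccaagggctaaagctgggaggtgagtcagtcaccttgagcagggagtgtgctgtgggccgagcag
Sdhb: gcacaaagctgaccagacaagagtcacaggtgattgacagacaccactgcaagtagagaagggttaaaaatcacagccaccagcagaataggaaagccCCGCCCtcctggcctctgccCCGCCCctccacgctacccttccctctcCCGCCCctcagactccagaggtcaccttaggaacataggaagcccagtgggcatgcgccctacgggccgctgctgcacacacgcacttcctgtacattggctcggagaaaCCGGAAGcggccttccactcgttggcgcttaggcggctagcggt
Ndufb6: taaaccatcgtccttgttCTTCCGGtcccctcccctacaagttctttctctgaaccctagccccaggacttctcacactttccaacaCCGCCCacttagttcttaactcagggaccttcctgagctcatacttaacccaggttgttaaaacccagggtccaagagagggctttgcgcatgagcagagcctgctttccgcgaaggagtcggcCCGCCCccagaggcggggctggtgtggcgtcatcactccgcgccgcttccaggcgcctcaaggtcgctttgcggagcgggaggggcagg

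The Cox8a window held the ETS letters at 2 places, and Cox6b1, Sdhb and Ndufb6 held them once. The Cox5a window held the SP1 letters at 2 places and no ETS letters, and Sdhb and Ndufb6 held SP1 letters too. The Atp5g1 window held none of the 4 motifs. A window was at hand for 66 of the 82 genes. The NRF1 letters stood in 12.1% of them, against 4.46% of the windows of all 7581 protein-coding genes tested and 2.67% of all 16459 windows. The YY1 letters stood in 9.09% of the members' windows, against 3.85% and 2.05%, and the ETS letters in 22.7%, against 21.0% and 12.4%. The SP1 letters stood in 39.4% of the members' windows, against 65.4% and 48.4%. Among the 13 genes with a window that rose in phagocytosis libraries, 7 held the ETS letters (Cox8a, Cox6b1, Cox6a1, Sdhb, Ndufb6, Atp5h and Atp5k). Of the same 13, 6 held the SP1 letters, 2 the NRF1 letters and 0 the YY1 letters. In the order ETS, SP1, NRF1 and YY1 these were 53.8%, 46.2%, 15.4% and 0.0%. The protein-coding genes tested had 21.0%, 65.4%, 4.46% and 3.85%. These shares describe letters in a window and name no bound factor.

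Levels per length (TPM, the deposited value scaled by transcript length and library) placed subunits of complexes IV, V and III at the top. Over all 24 libraries Cox8a, the ubiquitous form of subunit 8 of complex IV, averaged 499 ± 178 TPM (SD, n = 24), the highest of the 82. Atp5b, the catalytic beta subunit of ATP synthase, followed at 415 ± 175 TPM, then Cox6a1 at 403 ± 130 TPM, Cox6b1 at 393 ± 133 TPM, and Uqcr11 and Uqcrq of complex III at 391 ± 115 and 391 ± 155 TPM (SD, n = 24 each). These 6 levels differed from their neighbours by less than their spread between libraries. Complex II was lowest, with a median of 55.8 TPM over its 4 genes, against 99.4 for complex I, 176 for complex III, 193 for complex V and 221 for complex IV over the genes tested. In complex I the highest were the accessory subunits Ndufa3 (274 ± 91.5 TPM) and Ndufa2 (263 ± 85.6 TPM), and the iron-sulphur subunit Ndufs1 was at 27.9 ± 12.2 TPM (SD, n = 24 each).

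Tissue-restricted isoforms were near the floor. The heart and muscle forms Cox6a2, Cox7a1 and Cox8b averaged 14.5 ± 6.18, 3.33 ± 5.73 and 3.99 ± 8.66 TPM, against 403 ± 130 TPM for Cox6a1, 217 ± 86.6 TPM for Cox7a2 and 499 ± 178 TPM for Cox8a (SD, n = 24 each). The testis form Cox6b2 averaged 2.67 ± 5.05 TPM, against 393 ± 133 TPM for Cox6b1 (SD, n = 24 each). Cox6a2 had reads in all 24 libraries, and part of it (10.3% of its transcript) overlaps Itgad on the other strand, whose reads cannot be told apart in libraries that carry no strand. Of the 3 genes for subunit c, which forms the proton-carrying ring of ATP synthase, Atp5g1 (328 ± 117 TPM) was above Atp5g3 (157 ± 48.0 TPM) (SD, n = 24 each). Atp5g2 had 122 reads in all and is uncertain, because the pseudogene Gm10175, which holds 87.7% of its 31-base words, took 2674.

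The state comparison averages the 4 differences, phagocytosis minus control, found within sex and genotype. Subunit genes were mostly higher in phagocytosis libraries, and 8 of the 15 that passed belong to complex IV. By edgeR's quasi-likelihood test with Benjamini-Hochberg adjustment over 9803 genes, 15 of the 74 tested subunit genes rose and 0 fell (at an unadjusted p under 0.05, 31 were higher and 0 lower, and DESeq2 called the same 15). Among all genes tested 13.6% were called, 8.39% higher and 5.20% lower in phagocytosis libraries, and 14.8% were higher and 12.2% lower at an unadjusted p under 0.05, which is 27.0% in both directions. DESeq2 called 9.22% of all genes higher and edgeR with RLE size factors, which gave 15 subunit genes, 8.71%. With the replicate number as a block 17 subunit genes were called (9.46% of all genes were called higher), and with no filter 12 of 80 (3.14%). The log2 fold change was above 0 in 68 of the 74 and in 49.3% of all genes tested. Its median was 0.265 over the 74 and -0.005 over all genes tested. In bulk RNA, a larger share of cells with high levels and a higher level per cell cannot be told apart. The markers of border-associated macrophages moved with the same comparison, with a median sum of 298 CPM in phagocytosis libraries and 94.9 CPM in control libraries and all 11 means higher in phagocytosis libraries, and the median sums of monocyte, neuron and oligodendrocyte markers were also higher. The part of these markers in the subunit genes' difference was not tested.

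The 82 genes together took 0.751% to 0.989% of the reads in phagocytosis libraries and 0.557% to 0.818% in control libraries. On the CPM scale, which corrects for composition by TMM normalisation, their sum averaged 8823 ± 661 CPM (SD, n = 16) in phagocytosis libraries and 7312 ± 614 CPM (SD, n = 8) in control libraries, a ratio of 1.21. In all, 14 of the 16 phagocytosis libraries were above the highest control. On the TPM scale, which has no correction for composition, the sum averaged 13614 ± 2151 TPM in phagocytosis libraries and 9078 ± 3319 TPM in control libraries, a ratio of 1.5 (1.66 for complex IV) (SD, n = 16 and 8). Of the 74 genes tested singly, the phagocytosis and control libraries of 0 did not overlap, which is near the 0.867% of all genes tested.

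**Figure D1:**
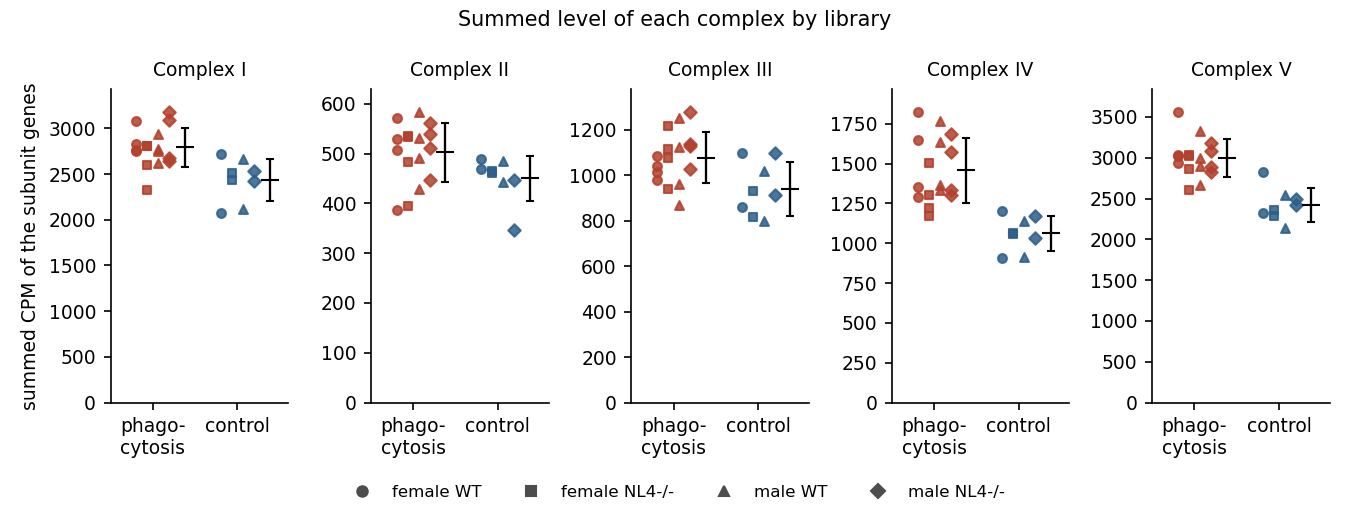
Summed CPM (y axis, starting at 0) of the subunit genes of each complex in every library, phagocytosis left and control right, with the symbol giving sex and genotype and the bar the mean ± SD (n = 16 and 8). Complex IV stands at 1172 to 1822 CPM in phagocytosis libraries and 907 to 1205 CPM in control libraries, while complexes I, II and III overlap more widely.

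Complex IV (cytochrome c oxidase) differed most between the states. Its 18 genes summed to 1172 to 1822 CPM (median 1360) in phagocytosis libraries and 907 to 1205 CPM (median 1060) in control libraries, a ratio of means of 1.37, and 15 of 16 phagocytosis libraries were above the highest control. Of its 11 tested genes 8 rose (8.39% of all genes tested rose), 0 fell and 10 had a log2 fold change above 0, with a median of 0.521. All 8 encode small subunits that surround the catalytic core made from mitochondrial DNA.

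Cox8a (chromosome 19, 7215153 to 7217616, GRCm38) ran from 191 through a median of 250 to 352 CPM in phagocytosis libraries, against 135, 170 and 218 CPM in control libraries. Only controls of male NL4-/- mice (197 and 218 CPM) reached into the phagocytosis range. Its log2 fold change was 0.61 (95% interval 0.37 to 0.86, adjusted p = 0.00138), the smallest adjusted p of the 74. Cox6b1 (chromosome 7, 30616861 to 30626151), on the side where cytochrome c docks, ran from 162 through 204 to 238 CPM in phagocytosis libraries and from 90.8 through 140 to 180 CPM in control libraries (0.58 ± 0.122 SE, adjusted p = 0.00188). Cox5a (chromosome 9, 57521274 to 57532426), a matrix-side subunit, ran from 59.8 through 83.4 to 117 CPM in phagocytosis libraries and from 38.8 through 58.4 to 84.8 CPM in control libraries (0.54 ± 0.133 SE, adjusted p = 0.00645). For Cox5a a single control, male WT control 2, was above 65.2 CPM.

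Cox6a1 (chromosome 5, 115345642 to 115348981) ran from 145 through 211 to 269 CPM in phagocytosis libraries and from 112 through 146 to 192 CPM in control libraries (log2 fold change 0.50 ± 0.128 SE, adjusted p = 0.00872). Cox6c (chromosome 15, 35925886 to 35938246) ran from 51.0 through 71.2 to 134 CPM in phagocytosis libraries and from 36.4 through 50.3 to 62.9 CPM in control libraries (0.66 ± 0.170 SE, adjusted p = 0.00881). Its 12 highest libraries were all phagocytosis libraries, led by female WT phagocytosis 2, the library with the shortest fragments. That library also had the highest sum of all 82 genes. Cox7b (chromosome X, 106015700 to 106022450) ran from 50.7 through 68.6 to 128 CPM in phagocytosis libraries and from 36.8 through 47.0 to 62.7 CPM in control libraries (0.63 ± 0.175 SE, adjusted p = 0.0151). Cox7a2 averaged 108 ± 25.8 CPM in phagocytosis libraries and 74.9 ± 12.1 CPM in control libraries (0.52 ± 0.149 SE, adjusted p = 0.0184). Cox5b, named here after its values were seen because it completes the 8, was nearest the threshold (0.36 ± 0.123 SE, adjusted p = 0.0483).

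The 3 tested genes of complex IV that did not pass were Cox7c, Ndufa4 and Cox7a2l, the first 2 named after their values were seen. Cox7c had a log2 fold change of 0.37 ± 0.192 (SE; adjusted p = 0.212). Ndufa4, named for complex I and since placed in complex IV, had 0.26 (95% interval 0.01 to 0.52, adjusted p = 0.197). Cox7a2l, related to Cox7a2 and known for its place in respiratory supercomplexes, averaged 94.9 ± 24.3 CPM in phagocytosis libraries (SD, n = 16) and 102 ± 9.34 CPM in control libraries (SD, n = 8), with a log2 fold change of -0.11 ± 0.154 (SE; 95% interval -0.41 to 0.19, adjusted p = 0.708). Its 1075-base transcript was also the longest of the 11.

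**Figure D2:**
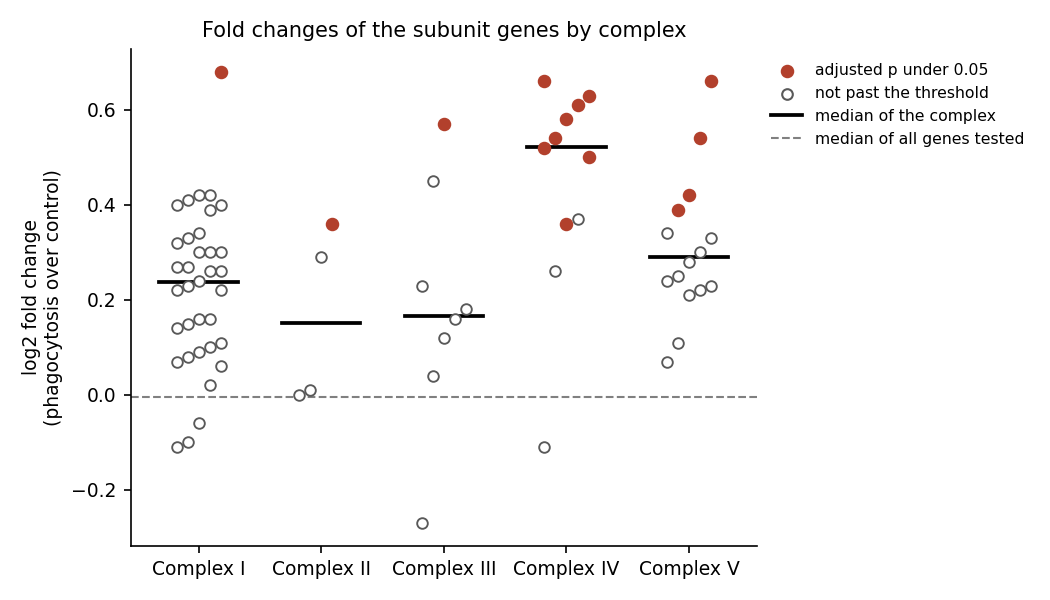
Log2 fold change (y axis, phagocytosis over control) of each tested subunit gene by complex (x axis), with filled points past the threshold, bars at the median of each complex and a dashed line at the median of all genes tested. Complex IV has 8 filled points and a median of 0.521, against 0.291 in complex V, 0.237 in complex I, 0.166 in complex III and 0.151 in complex II. Atp5g2, which had 0 reads in both female NL4-/- controls, is not drawn.

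Complex V (ATP synthase) came next. Its 17 genes summed to 2606 to 3558 CPM (median 3007) in phagocytosis libraries and 2141 to 2829 CPM (median 2388) in control libraries, a ratio of means of 1.24, and 14 of 16 phagocytosis libraries were above the highest control. Of 16 tested genes 4 rose and 0 fell, against 8.39% of all genes tested called higher. The 4 came 1 each from the catalytic head, the c ring, the peripheral stalk and the membrane part.

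Atp5b (chromosome 10, 128083273 to 128090391), the most abundant subunit gene of complex V, ran from 672 through 774 to 982 CPM in phagocytosis libraries and from 481 through 577 to 698 CPM in control libraries. The ranges overlapped narrowly, and the log2 fold change was 0.42 ± 0.0958 (SE; adjusted p = 0.00351). Its partner in the catalytic head, Atp5a1, averaged 545 ± 72.5 CPM in phagocytosis libraries and 472 ± 64.5 CPM in control libraries and did not pass (0.21 ± 0.105 SE, adjusted p = 0.196). Atp5g1 (chromosome 11, 96068852 to 96075670) ran from 175 through 242 to 321 CPM in phagocytosis libraries and from 123 through 175 to 214 CPM in control libraries (0.54 ± 0.122 SE, adjusted p = 0.00336). A pseudogene copy of Atp5g1 held 288 reads beside its own 3538, and with those reads added it was still called.

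Atp5g3, the other well-measured subunit c gene, had a log2 fold change of 0.22 ± 0.113 (SE; adjusted p = 0.197). After rounding in each library, Atp5g2 had 103 reads over the 16 phagocytosis libraries and 17 over the 8 controls (122 before rounding), with 0 reads in 8 of the 24 libraries, both female NL4-/- controls among them. Its split from Gm10175 is uncertain, so no fold is given. Atp5h (chromosome 11, 115415689 to 115419962), subunit d of the peripheral stalk, averaged 161 ± 27.5 CPM in phagocytosis libraries and 123 ± 25.2 CPM in control libraries (0.39 ± 0.123 SE, adjusted p = 0.0304). Atp5k (chromosome 5, 108433244 to 108434448), subunit e, which joins ATP synthase dimers, averaged 39.9 ± 13.7 CPM in phagocytosis libraries and 24.9 ± 4.18 CPM in control libraries (0.66 ± 0.215 SE, adjusted p = 0.0369). Its lowest value, 13 CPM in female NL4-/- phagocytosis 4, was also below every control.

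**Figure D3:**
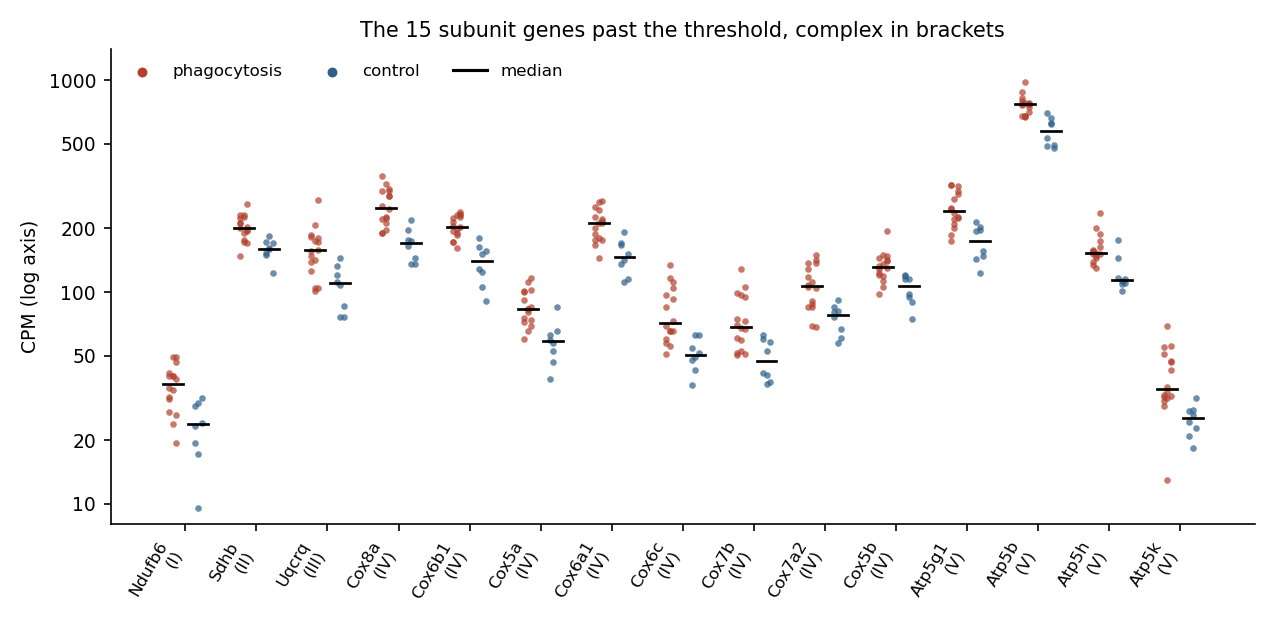
CPM (log axis) of the 15 subunit genes past the threshold in every library, phagocytosis left and control right of each pair, with bars at the medians. The medians are higher in phagocytosis libraries for all 15, and the 2 sets of points overlap for each gene.

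Complex I (NADH dehydrogenase), the largest, showed a smaller difference. Its 35 genes summed to 2328 to 3176 CPM (median 2769) in phagocytosis libraries and 2073 to 2720 CPM (median 2473) in control libraries, a ratio of means of 1.15. One of 35 rose, a smaller share than the 8.39% of all genes tested called higher, and 0 fell. At an unadjusted p under 0.05, 11 of the 35 were higher, against 14.8% of all genes tested. The gene that rose was Ndufb6 (chromosome 4, 40270591 to 40279421), an accessory subunit of the membrane arm, at 36.0 ± 8.94 CPM in phagocytosis libraries and 23.0 ± 7.40 CPM in control libraries (0.68 ± 0.207 SE, adjusted p = 0.0245). Smim27 overlaps 39.0% of the Ndufb6 transcript on the other strand, and without strand the reads of the overlap cannot be told apart.

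The 7 core subunits of complex I, which carry the flavin and the iron-sulphur clusters, and the 28 accessory ones differed in their medians. The median log2 fold change was 0.023 over the core subunits, of which 0 passed, and 0.270 over the accessory ones, all of which were above 0. Ndufs1 averaged 52.0 ± 14.5 CPM in phagocytosis libraries and 55.1 ± 10 CPM in control libraries (-0.06 ± 0.174 SE, adjusted p = 0.870). Ndufs8 (0.06 ± 0.116 SE), Ndufv1, which takes electrons from NADH (0.22 ± 0.132 SE), and Ndufs7 (0.26 ± 0.127 SE) did not pass either, with adjusted p of 0.799, 0.298 and 0.186. The core genes were also the longer ones, with a median transcript length of 1327 bases, against 640 bases for the accessory genes.

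Complex II (succinate dehydrogenase), whose genes are all nuclear, summed to 387 to 583 CPM (median 521) in phagocytosis libraries and 347 to 490 CPM (median 463) in control libraries. Sdhb (chromosome 4, 140961203 to 140979193), its iron-sulphur subunit, ran from 148 through 201 to 261 CPM in phagocytosis libraries and from 123 through 160 to 183 CPM in control libraries (0.36 ± 0.107 SE, adjusted p = 0.0250). Sdha, the flavoprotein that oxidises succinate, averaged 200 ± 55.9 CPM in phagocytosis libraries and 200 ± 31.5 CPM in control libraries (log2 fold change 0.01, 95% interval -0.30 to 0.32). The membrane anchors Sdhc (0.29 ± 0.175 SE, adjusted p = 0.297) and Sdhd (0.00 with a 95% interval of -0.31 to 0.31) did not pass.

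Complex III (the bc1 complex) summed to 871 to 1277 CPM (median 1081) in phagocytosis libraries and 798 to 1099 CPM (median 921) in control libraries. One of its 8 genes rose, against 8.39% of all genes tested. This was the small subunit Uqcrq (chromosome 11, 53427922 to 53430831), which ran from 101 through 158 to 272 CPM in phagocytosis libraries and from 76.1 through 110 to 145 CPM in control libraries (0.57 ± 0.170 SE, adjusted p = 0.0236). Uqcr11 averaged 145 ± 28 CPM in phagocytosis libraries and 124 ± 22.5 CPM in control libraries (0.23 ± 0.123 SE, adjusted p = 0.229). Uqcrfs1, the Rieske iron-sulphur protein, averaged 82.1 ± 12.2 CPM in phagocytosis libraries and 80.2 ± 12.8 CPM in control libraries (0.04 ± 0.124 SE, adjusted p = 0.884). The lowest fold change of the 74 was that of Uqcrb, named after its value was seen (-0.27 ± 0.210 SE, adjusted p = 0.446).

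With each of the 24 libraries left out in turn, the calls of Cox8a, Cox6b1, Cox5a, Cox6a1, Cox6c, Atp5b and Atp5g1 held in all 24 fits. Cox7a2 was lost without male WT control 2 and Cox7b without female WT control 2. Sdhb was lost in 3 fits, without female NL4-/- control 2, male NL4-/- control 1 or male WT control 2. Uqcrq was lost in 3, without female NL4-/- control 1, female WT control 2 or male WT control 2. Ndufb6 was lost in 4, each without a number 2 control, and Atp5h in 4, without female NL4-/- control 1, female WT control 2, male NL4-/- control 2 or male WT control 1. Cox5b kept its call in 15 of the 24 fits and Atp5k in 13. Atp5k was lost without any 1 of the 8 controls, without female WT phagocytosis 2 or 3 and without male NL4-/- phagocytosis 4. Cox5b was lost without any of 5 controls (both of male NL4-/-, the first of female NL4-/- and the number 2 controls of both WT groups) or 4 phagocytosis libraries (female NL4-/- 1 and female WT 2, 3 and 4).

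Transcript length and fragment length moved with these differences. The tested subunit genes had a median transcript length of 687 bases (602 for the 15 that rose), against 2138 bases over all genes tested. Across genes, which are not independent replicates, length and log2 fold change had a Spearman rho of -0.527 over the 74 and -0.236 over all genes tested. Other genes of at least 500 and under 750 bases had a median log2 fold change of 0.258 (n = 345), and 21.4% of them rose. The 36 subunit genes of that length had 0.335, with 11 of them called, and the 9 of complex IV among them had 0.541. Below 500 bases the medians were 0.337 over 11 subunit genes, 2 of them called, and 0.257 over 167 other genes, of which 17.4% rose. From 750 to under 1000 bases the 8 subunit genes had 0.132 with 0 called by edgeR or DESeq2 and 2 higher at an unadjusted p under 0.05, against 0.171 and 15.7% of other genes. From 1000 to under 1500 bases the 13 subunit genes had 0.068 with 1 called, against 0.060 and 11.3%, and the 5 from 1500 to under 2500 bases had 0.156 with 1 called, against -0.001 and 7.99%. The subunit genes' medians were above other genes of their length in the shortest bins and in the bin of 5, and near or below them between 750 and 1500 bases.

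**Figure D4:**
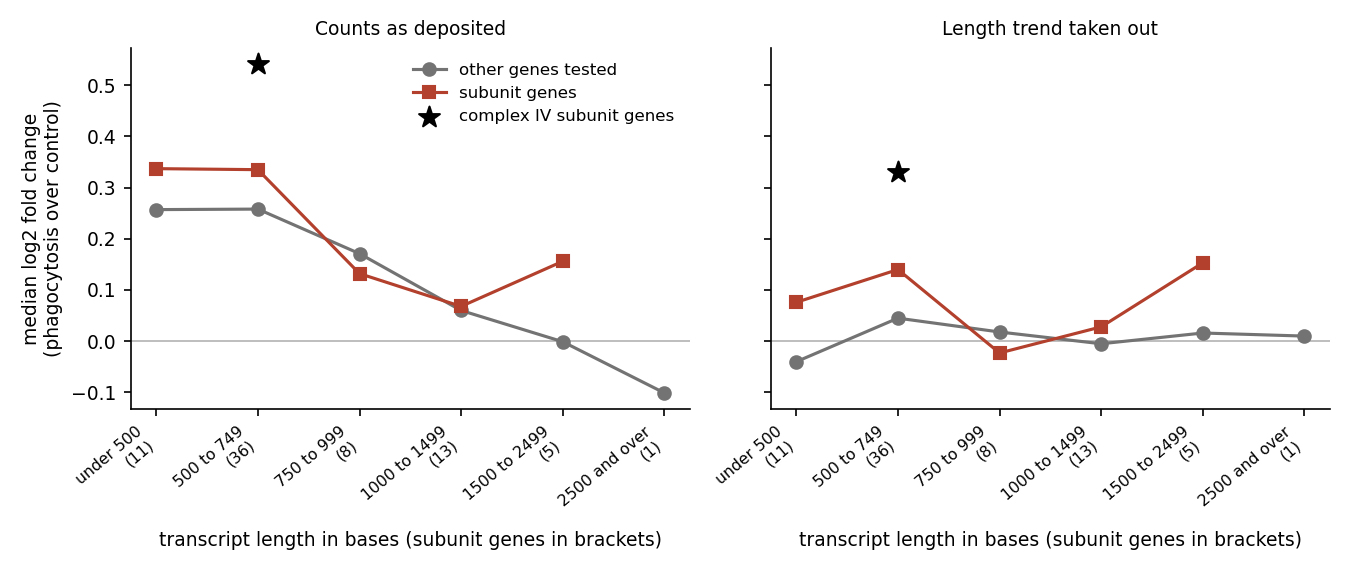
Median log2 fold change (y axis, phagocytosis over control) by transcript length (x axis, with the number of subunit genes in brackets, and only sets of 5 or more drawn) for other genes tested, the subunit genes and the complex IV genes, with counts as deposited (left panel) and with each library's trend on length taken out (right panel). In the left panel the medians of other genes fall with length beyond the bin from 500 bases, and the complex IV star in the bin from 500 bases stands above both in each panel, at 0.541 and 0.331.

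With the trend on length in each library taken out, 4 of the 15 were still called (Atp5b, Atp5g1, Cox6b1 and Cox8a). These are 5.41% of the 74, below the 7.63% of all genes called higher in that fit, and 54 of the 74 were above 0. The median over the 74 was then 0.081, and it was 0.282 in complex IV, 0.091 in complex V and 0.039 in complex I. With counts scaled by effective length, 5 were called (Atp5g1, Cox5a, Cox6c, Cox8a and Ndufb6), 6.76% of the 74 against 6.01% of all genes, and 64 were above 0. With fragment length as a covariate 8 of the 15 were called (10.8% of the 74, against 6.26% of all genes), and without the 5 libraries of short fragments 10 genes were (13.5%, against 8.72%), 9 of them among the 15. The 2 members called in all 3 fits on length or fragment length, and without those 5 libraries, were Cox8a and Atp5g1. Both lost their call without the 3 controls rich in satellite transcripts (adjusted p = 0.0581 and 0.0633 by edgeR's test).

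Fragment length also moved with the summed level between libraries. The 5 phagocytosis libraries under 180 bases summed to 9088 to 9932 CPM, the other 11 phagocytosis libraries to 7580 to 8965 CPM, and the controls to 6417 to 8317 CPM. As a description, Pearson's r between fragment length and summed CPM was -0.660 over all 24 libraries, -0.769 over the 16 phagocytosis libraries and -0.590 over the 8 controls. Libraries also differed in depth, and any differences in preparation are not given in the labels. The part of fragment length in the difference between states was not tested beyond these fits. Without the 3 controls rich in satellite transcripts 2 genes were called (Cox5a and Cox6b1, 2.70% of the 74, against 3.09% of all genes). The median over the 74 was then 0.283, against 0.058 over all genes tested, and 63 of the 74 were above 0. With phagocytosis numbers 3 and 4 only, 5 of 73 were called (6.85%, against 5.28% of all genes). With numbers 1 and 2 only, 19 of 74 were called (25.7%, against 11.1% of all genes). As a share of reads outside satellite transcripts, the 82 genes took 0.939% ± 0.0677 in phagocytosis libraries (SD, n = 16) and 0.808% ± 0.0575 in control libraries (SD, n = 8).

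**Figure D5:**
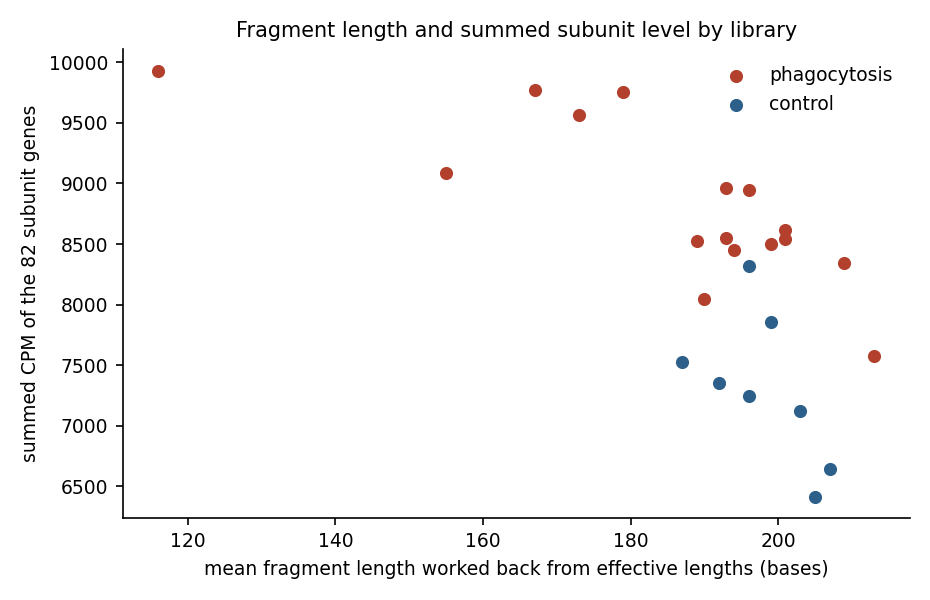
Summed CPM of the 82 subunit genes (y axis) against mean fragment length in bases, worked back from effective lengths (x axis), for the 16 phagocytosis and 8 control libraries. The 5 phagocytosis libraries under 180 bases sum to 9088 to 9932 CPM, and among libraries of 187 bases or more the phagocytosis points (7580 to 8965 CPM) still lie mostly above the controls (6417 to 8317 CPM).

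Within each sex and genotype, 4 phagocytosis libraries were set against 2 controls, and these 4 comparisons share no library. No subunit gene passed in any of them by edgeR's test. The counts at an unadjusted p under 0.05, all higher, were 5 of 74 in female NL4-/-, 9 in female WT, 9 in male NL4-/- and 13 in male WT mice. Over all genes tested the shares at that p, higher and lower together, were 9.56%, 12.1%, 10.8% and 8.20% in that order. The shares called, also in both directions, were 0.459%, 0.581%, 0.602% and 0.326%. DESeq2 called 1 gene, Atp5g1 in female WT mice, and had 5, 10, 8 and 13 members at an unadjusted p under 0.05 in the same order. The median log2 fold change over the 74 was 0.144 in female NL4-/-, 0.297 in female WT, 0.264 in male NL4-/- and 0.360 in male WT mice.

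The direction recurred most often in complexes IV and V. The log2 fold change was above 0 in all 4 comparisons for 40 of the 74 tested genes, against 19.0% of all genes tested. This held for 9 of 11 in complex IV (Cox7c and Cox7a2l were the exceptions), 13 of 16 in complex V, 13 of 35 in complex I, 3 of 8 in complex III and 2 of 4 in complex II. The 74 genes had a median transcript length of 687 bases, against 2138 bases over all genes tested. No such share was taken for other genes of their length. Cox8a had 0.57 in female NL4-/-, 0.73 in female WT, 0.43 in male NL4-/- and 0.73 in male WT mice. Cox6b1 had 0.46, 0.63, 0.42 and 0.81 in that order, and Atp5b 0.56, 0.34, 0.48 and 0.30. As a description with no test, the ratio of the summed CPM of complex IV to that of complex I within a library was 0.434 to 0.600 (median 0.503) in phagocytosis libraries and 0.409 to 0.482 (median 0.434) in control libraries.

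The genotype comparison asks whether loss of neuroligin-4 moved these genes in either state. No gene of the 9803 passed in any genotype comparison or interaction with edgeR, so 0.0% of all genes tested were called throughout, and DESeq2 called 0 to 5 genes in each and 0 subunit genes. In phagocytosis libraries 4 of 74 subunit genes had an unadjusted p under 0.05 (5.09% of all genes), with DESeq2 2, and in control libraries 0 did (3.37%), with DESeq2 0. The 82 genes summed to 8710 ± 699 CPM in NL4-/- and 8936 ± 646 CPM in WT phagocytosis libraries (SD, n = 8 each). In control libraries the sums were 7314 ± 172 CPM in NL4-/- and 7309 ± 922 CPM in WT mice (SD, n = 4 each).

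Complex IV was lower in NL4-/- than in WT phagocytosis libraries by less than 1 SD of either genotype. It summed to 1387 ± 181 CPM in NL4-/- and 1526 ± 214 CPM in WT phagocytosis libraries (SD, n = 8 each), with a median log2 fold change of -0.145 over 11 genes and 1 gene above 0. In control libraries it summed to 1081 ± 60.4 CPM in NL4-/- and 1042 ± 153 CPM in WT mice (SD, n = 4 each). Lower values in NL4-/- phagocytosis libraries were not confined to complex IV. In complex V the log2 fold change was -0.33 for Atp5k and -0.21 for Atp5e, and 0.09 for Atp5g3. Ndufb3 of complex I had -0.54 and Uqcr11 of complex III 0.29. The share of all genes below 0 in this comparison is not given here. Cox5a averaged 74.2 ± 9.37 CPM in NL4-/- and 97.3 ± 14.8 CPM in WT phagocytosis libraries (SD, n = 8 each), a log2 fold change of -0.39 ± 0.144 (SE; adjusted p = 0.944, edgeR's quasi-likelihood test). The fragment length was 173 to 213 bases in NL4-/- and 116 to 201 bases in WT phagocytosis libraries, and its part in the gap was not tested.

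By sex, 5 of 74 subunit genes had an unadjusted p under 0.05 between genotypes in female phagocytosis libraries (5.20% of all genes) and 1 in male ones (4.74%), with DESeq2 4 and 0. Female and male control libraries had 0 each (2.14% and 3.35%), also with DESeq2. The smallest p was that of Ndufc2 of complex I, named after its value was seen, at 31.1 ± 11.8 CPM in female NL4-/- and 67.3 ± 30.3 CPM in female WT phagocytosis libraries (SD, n = 4 each), a log2 fold change of -1.05 ± 0.305 (SE; adjusted p = 0.937, edgeR). The difference between the sexes in the genotype effect under phagocytosis had an unadjusted p under 0.05 for 2 subunit genes (4.76% of all genes), with DESeq2 3. The difference between the states in the genotype effect had it for 1 (2.82%), and the difference between the sexes in the state effect for 1 (1.94%), with DESeq2 1 each. The interval on the state difference in genotype effect for Cox8a, -0.72 to 0.25 on the log2 scale, gives the width of these interactions for a well-measured gene.

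Genes that work beside the subunits were read from lists of the pathway, whose counts stand against the 8.39% of all genes called higher and 5.20% called lower. Among subunits and carriers outside the symbol pattern, 2 of 9 tested rose and 0 fell: Cox4i1, the subunit 4 gene of complex IV, at 463 ± 78.9 CPM in phagocytosis libraries and 342 ± 41.4 CPM in control libraries (0.43 ± 0.115 SE, adjusted p = 0.0117), and Cyc1, cytochrome c1 of complex III, at 257 ± 45.0 CPM in phagocytosis libraries and 190 ± 22.3 CPM in control libraries (0.43 ± 0.117 SE, adjusted p = 0.0138). With Cox4i1, 9 nuclear genes of complex IV rose. Of the 13 mRNAs encoded in mitochondrial DNA, 0 rose and 0 fell with edgeR, and 0 had an unadjusted p under 0.05. Their summed level was 1143 to 5796 CPM (median 2180) in phagocytosis libraries and 1695 to 3886 CPM (median 2731) in control libraries, a ratio of means of 0.975. On the TPM scale the ratio was the other way, 1.42 (6346 ± 2039 TPM in phagocytosis libraries, n = 16, and 4481 ± 1065 TPM in control libraries, n = 8, SD), so no direction is given for these mRNAs.

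Assembly factors, which build the complexes, had 0 of 36 tested rise and 1 fall. That gene was Acad9, a complex I assembly factor, at 121 ± 38.2 CPM in phagocytosis libraries and 195 ± 90.9 CPM in control libraries (-0.65 ± 0.176 SE, adjusted p = 0.0148). Carriers had 2 of 12 rise and 0 fall: Slc25a5, an ADP/ATP carrier (0.35 ± 0.103 SE, adjusted p = 0.0209), and Slc25a3, the phosphate carrier (0.29 ± 0.0924 SE, adjusted p = 0.0331), which supply ATP synthase. Import had 2 of 26 rise (7.69%, below the share of all genes) and 0 fall: Tomm40, the channel of the outer membrane, at 216 ± 61.7 CPM in phagocytosis libraries and 129 ± 20.4 CPM in control libraries (0.72 ± 0.143 SE, adjusted p = 0.00106), and Grpel1 (0.45 ± 0.126 SE, adjusted p = 0.0168).

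Mitochondrial ribosomal proteins had 6 of 77 rise (7.79%, also below the share of all genes) and 0 fall, with the smallest adjusted p for Mrpl21 (0.76 ± 0.189 SE, adjusted p = 0.00655) and Mrpl39 (0.65 ± 0.185 SE, adjusted p = 0.0172). The tricarboxylic acid cycle had 1 of 17 rise (5.88%) and 0 fall: Mdh2, malate dehydrogenase, at 284 ± 52.0 CPM in phagocytosis libraries and 189 ± 28.2 CPM in control libraries (0.59 ± 0.120 SE, adjusted p = 0.00146). Redox defence had 1 of 8 rise and 0 fall: Sod2, the mitochondrial superoxide dismutase, at 135 ± 44.6 CPM in phagocytosis libraries and 73.5 ± 13.2 CPM in control libraries (0.87 ± 0.166 SE, adjusted p = 0.000734). Of 12 tested regulators of mitochondrial gene expression, such as Nrf1, Yy1 and Tfam, 0 rose and 0 fell by edgeR, with 1 higher and 2 lower at an unadjusted p under 0.05. The median log2 fold changes were 0.227 for mitochondrial ribosomal proteins, 0.305 for import, 0.071 for the tricarboxylic acid cycle and -0.076 for the regulators.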

How the data were processed

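RNA was measured by Smart-Seq2, a full-length protocol without molecular identifiers, in 24 libraries of 1000 sorted microglia. The authors deposited 1 table per library with expected counts (estimated reads, shared reads divided among transcripts) and TPM (per effective length, scaled within the library), per the file headers, whose columns are those that salmon writes. The quantifier's version and its index: not given in the sources used here.

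Of 116945 transcripts, 116023 were matched to GENCODE vM21 (GRCm38) and summed to 35518 genes, and the 922 unmatched ones (0.274% to 0.379% of reads) were left out. Counts were rounded and tested with edgeR 4.0.16 (R 4.3.3) by the quasi-likelihood test, with TMM normalisation, a minimum count of 10 in the filter, 1 mean per sex, genotype and state, and Benjamini-Hochberg adjustment over 9803 genes at 0.05. Standard errors, intervals and adjusted p-values in the text are from this fit. Alternatives included DESeq2 1.42.0, other scalings, no filter, a length trend removed from each library, length-scaled counts, a replicate block and leaving out each library, and 3 were added after the data were seen: fragment length as a covariate, libraries of short fragments left out, and reads of near-identical copies added. The script was tested on simulated data.

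The members and lists were chosen with earlier results of these data known. Named were, per complex, the called genes with the smallest adjusted p and the 2 highest levels per length, the isoform pairs, all of complex II, catalytic and redox-centre subunits, and up to 2 called genes of each pathway list. Ndufa4l2, also on the list of genes outside the symbol pattern, was counted as a member. A result for 1 gene that this rule names is not reported here. Replicate numbers were not used to pair samples, and same-numbered libraries had a median correlation of 0.00607. Whether libraries of a number were handled together is not given in the labels. Libraries are called biological replicates by the series, and it is not said that each came from its own mouse, so p-values measure the spread between these libraries. Depth was 421107 to 1013797 reads a library, which limits genes of few reads most.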

Additional observations from a re-analysis of the deposited data

Results flagged for a closer look

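In groups of 4 phagocytosis libraries, 144 sets of 4 values (named genes, the share of reads, and the sums over each complex and over all) were examined for a library far from the other 3, and 5 were found. Chance alone flags about 1 in 20 such sets, so these are given as values only. The summed level of complex V was 3558 CPM in female WT phagocytosis 2, against 2930 to 3028 CPM in the other 3 of its group, and that library also had the shortest fragments. Atp5b was at 672 CPM in female NL4-/- phagocytosis 4, against 773 to 777 CPM. Atp5h was at 237 CPM in male WT phagocytosis 1, against 145 to 157 CPM. Cox7a2l was at 135 CPM in male WT phagocytosis 4, against 95.4 to 96.7 CPM. Uqcrq was at 101 CPM in male NL4-/- phagocytosis 2, against 179 to 186 CPM.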

How the results depend on the processing

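The 15 subunit genes called higher became 4 with the length trend taken out, 5 with length-scaled counts, 8 with fragment length as a covariate, 5 with phagocytosis numbers 3 and 4 only, and 2 without the 3 controls rich in satellite transcripts. Leaving out 1 library gave 9 to 17, with 9 without female WT control 2 or male WT control 2. Over all genes, 1332 calls became 1158 with the length trend taken out, 912 with length-scaled counts, 899 with the fragment covariate, 782 with numbers 3 and 4 only, 410 without the satellite-rich controls and 781 to 1508 with 1 library left out. Fewer libraries enter the last 3. With phagocytosis numbers 1 and 2 only, a fit with as many libraries as numbers 3 and 4 only, there were 1772 calls, 19 of them subunit genes called higher. What sets these 2 fits apart was not tested, nor were other causes. In female WT mice 1 subunit gene was called, against 0, under DESeq2, with numbers 3 and 4 only and with the replicate block. The block called 17 subunit genes higher. Same-numbered libraries had correlations of -0.114 to 0.147 in 68 pairs, and 6 of 24 libraries correlated best with their own number. No subunit gene was called lower under any setting run, and counts of 0 in genotype comparisons and interactions stayed at 0.

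Of the 74, 68 were above 0, against 54 with the length trend taken out. Among named genes signs turned for 9, none of which had passed. Sdhd had 0.01 under DESeq2 and RLE size factors, 0.04 with the fragment covariate, 0.06 with library totals alone, 0.00 with no filter, 0.16 with numbers 3 and 4 only and 0.03 without short-fragment libraries. Ndufs1 had 0.06 with the fragment covariate, 0.00 with totals alone and 0.10 without short-fragment libraries. With the length trend taken out, Uqcrfs1 had -0.01, Ndufs8 -0.09 and Uqcr11 -0.03. With length-scaled counts, Ndufs8 and Sdhc had -0.01 and Ndufv1 -0.02. With the replicate block Ndufs8 had -0.03, Sdha -0.23 and Uqcrfs1 -0.00. Without satellite-rich controls Sdha had -0.06 and Uqcrfs1 -0.00. Sdha had -0.19 with numbers 1 and 2 only, and Cox7a2l 0.09 with numbers 3 and 4 only. With 1 library left out, Ndufs1 ran from -0.13 to 0.03, Sdha from -0.03 to 0.11, Sdhd from -0.09 to 0.17 and Uqcrfs1 from -0.01 to 0.13. Totals alone moved the median of all genes tested to 0.059.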
